A study of Homo sapiens with 16 samples.

Results

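The transcripts of 41 genes of the amino acid response were followed in cardiomyocytes made from human pluripotent stem cells (hPSC-CMs) and kept in different basal media. The 41 genes were chosen by function, with earlier results of these data known. They were all found among 43388 genes in the table, 4 of them (AARS1, GARS1, WARS1 and SARS1) under an older symbol. They comprise 5 regulators (ATF4, ATF5, DDIT3, CEBPB and CEBPG), 4 ATF4 effectors (DDIT4, TRIB3, CHAC1 and SESN2), 7 enzymes of asparagine, serine and glycine synthesis, 6 enzymes of proline, alanine, cysteine and glutamine metabolism, 2 branched-chain aminotransferases, 13 transporters and 4 aminoacyl-tRNA ligases. Of these, 35 reached a mean of 1 TPM (reads scaled by gene length and then to a fixed total per library) and were tested, and 6 did not (ASNS, CHAC1, CBS, SLC43A1, SLC6A9 and SLC6A6).

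All 16 libraries came from WTC11, an established human induced pluripotent stem cell line labelled wild type, which was differentiated to cardiomyocytes in RPMI/B27, that is, RPMI basal medium with the serum-free B27 supplement. One group of 4 wells was harvested at Day 16 of differentiation, in standard RPMI/B27. The other groups, each of 4 wells, were harvested at Day 30 after Day 16 cells had been kept in standard RPMI/B27, in RPMI_glcM/B27 (RPMI with 5 mM glucose) or in HPLM/B27 (human plasma-like medium, whose glucose RPMI_glcM matches). HPLM and RPMI_glcM therefore share their glucose but not their amino acids and other solutes, whereas HPLM and standard RPMI differ in both. The wells come from 1 line and, by the paper's account, 1 differentiation. The p-values therefore measure the spread between wells and not between differentiations, lines or donors.

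When amino acids run short, uncharged tRNA activates the kinase GCN2, which phosphorylates the translation factor eIF2; most translation then slows while translation of the ATF4 mRNA rises. Other eIF2 kinases answer to unfolded protein, haem and viral RNA, and the growth kinase complex mTORC1 also promotes ATF4 translation. ATF4 binds DNA paired with C/EBP-type partners and drives genes that make, import and charge amino acids, so the ATF4 mRNA itself is not a measure of ATF4 protein. In heart muscle, which relies mainly on oxidation for fuel, glutamine and branched-chain amino acids are also used as nitrogen carriers and as entry points to the citrate cycle.

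DNA that ATF4 and its C/EBP partners bind together carries the letters TGATGNAA (TTNCATCA on the other strand). This motif was searched on both strands in the RefSeq promoter windows (GRCh38.p14, 300 bases, 250 before and 50 after an annotated start), and any overlap with other motifs was not examined. Windows were given for 32 of the members, some with several starts. The motif was in 11 of their 58 windows (19.0%), against 1270 of all 35116 windows (3.62%), and 11 of the 32 members (34.4%) held it in at least 1 window, against 1217 of all 27305 genes (4.46%). The members were listed as genes of this pathway, so a higher share of them with the motif is a description of the list. The matches that lie before or across a start are shown with 11 bases on either side, since they hold the letters searched; they are matches of letters, and no binding was measured. Each run is 5′ to 3′ on the strand of the gene, and capitals mark the motif:
ASNS: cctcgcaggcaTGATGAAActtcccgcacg
CHAC1: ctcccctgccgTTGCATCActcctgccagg
CEBPG: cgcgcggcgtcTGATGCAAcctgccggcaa
BCAT1: tgtcttcctgcTGATGCAAtccgctaggtc
SLC1A4: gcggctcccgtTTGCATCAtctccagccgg
SLC1A5: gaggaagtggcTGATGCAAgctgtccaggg
SLC38A1: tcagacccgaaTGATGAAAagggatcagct
AARS1: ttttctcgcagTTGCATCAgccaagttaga
GARS1: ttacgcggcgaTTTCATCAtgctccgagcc

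These runs lie at chr7:97872458-97872487, minus strand (ASNS), chr15:40953251-40953280, plus strand (CHAC1), chr19:33374060-33374089, plus strand (CEBPG), chr12:24949131-24949160, minus strand (BCAT1), chr2:64989381-64989410, plus strand (SLC1A4), chr19:46784893-46784922, minus strand (SLC1A5), chr12:46266502-46266531, minus strand (SLC38A1), chr16:70289675-70289704, minus strand (AARS1) and chr7:30594834-30594863, plus strand (GARS1). In the GENCODE v44 models the BCAT1 run lay upstream of the gene, the CEBPG and SLC38A1 runs lay in an intron of a longer transcript, and the other runs overlapped a non-coding part of an exon of at least 1 transcript. The first base of the motif stood 68 bases before the start in ASNS, 42 in CEBPG and 209 in CHAC1. In SLC7A1 and SLC3A2 the motif followed the start, in a non-coding and a coding part of an exon. PSPH, SHMT2, PYCR1, GPT2, BCAT2, SLC7A2, SLC7A11, SLC38A3 and SLC6A6 had no window in the table.

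Depth was 7744768 to 16183655 reads assigned to genes per library, as recovered from the TPM steps, and 1 read in a gene of 1000 bases was worth 0.139 to 0.314 TPM. In standard RPMI/B27 at Day 30, libraries 3 and 4 stood apart: the mitochondrial ribosomal RNA gene RNR1 was at 14387 and 29276 TPM there, against 49.5 to 6806 TPM in the other 14 libraries. Of the 35 members tested, 31 were lower in TPM in both of these libraries than in both libraries 1 and 2 of the group, against 74.4% of all 16122 genes tested; after median-of-ratios scaling, which sets each library by its typical gene instead of its total, the share was 31.4% of members against 23.1% of all genes. A call that rests on standard RPMI/B27 at Day 30 and is lost without these libraries is therefore given with its value without them, a setting chosen after the data were seen and run on the genes past the filter. The cardiomyocyte label held: all 12 cardiomyocyte markers were tested, with summed levels of 14952 to 20372 TPM. Summed hepatic endoderm-like markers (15 genes) were at 461 to 813 TPM at Day 16 and, at Day 30, at 327 to 577 in RPMI/B27, 94.1 to 215 with RPMI_glcM/B27 and 72.2 to 210.5 with HPLM/B27, with the factors HNF4A, FOXA1, FOXA2 and SOX17 among them under 1 TPM. Markers within this list moved in opposite directions. The mean of ALB rose from 21.2 TPM at Day 16 to 242, 78.1 and 49.9 TPM in the Day 30 media, in that order. The mean of AFP fell from 441 TPM to 138, 54.97 and 57.03 TPM. Fibroblast-like markers (12 genes, DCN, PDGFRB, THY1, TCF21 and FAP under 1 TPM) summed to 242 to 441, 152 to 303, 119 to 165 and 124 to 188 TPM in the same order, and endothelial-like markers reached 1 TPM only in KDR. Smooth muscle-like markers (7 genes) summed to 511 to 1008, 299.7 to 1094, 331 to 439.7 and 359 to 568 TPM, with MYH11 at 0 in every library and the other 6 at a mean above 1 TPM. The part of these other cells in the results on members was not tested; in bulk RNA, fewer cells of a type and less RNA per cell cannot be told apart.

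The comparison that isolates the plasma-like composition at equal glucose, HPLM/B27 against RPMI_glcM/B27 at Day 30, called no member. None of the 35 members passed the threshold (limma across all genes, adjusted p under 0.05), where 0.0682% of all genes did, and 0 of 35 reached an unadjusted p under 0.05, against 6.53% of all genes. Limma-voom on the recovered reads and the fit after median-of-ratios scaling called 0 members as well, the latter beside 1.59% of all genes. None of the 35 had groups that did not overlap, against 7.28% of all genes. Under the filter, SLC6A6 did separate, at 0.241 to 0.400 TPM (8 to 14 reads) in HPLM/B27 and 0.186 to 0.239 TPM (5 to 7 reads) in RPMI_glcM/B27. The differences ran from -0.44 ± 0.26 (log2 fold change ± SE) for the transcription factor gene CEBPB to 0.48 ± 0.25 for the serine synthesis enzyme gene PSAT1, with SEs of 0.13 to 0.27 and a smallest adjusted p of 0.812. The median was 0.02, beside -0.06 over all genes. A p that misses the threshold does not show that the media act alike: with these SEs a difference of the size seen for PSAT1 could not be told from the spread between wells.

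Against standard RPMI/B27, cells in HPLM/B27 had more mRNA of SHMT2, DDIT3 and SLC38A1. These 3 members passed the threshold, all higher, and none was lower, where 2.41% of all genes passed (1.51% higher and 0.893% lower). Positive differences were found in 28 of 35 members, with a median of 0.25 beside -0.02 over all genes. In 6 of the 35 members (DDIT3, PSAT1, SHMT2, MTHFD2, GLUL and SLC38A1) the HPLM libraries lay above all RPMI libraries and in 0 below, against 4.13% and 3.17% of all genes. When only the glucose was lowered, in RPMI_glcM/B27 against RPMI/B27, 1 member passed, GLUL, which was higher, beside 2.2% of all genes (1.36% higher). There, too, 28 of 35 differences were positive, with a median of 0.30 beside 0.05. Of the 35 members, 3 (GLUL, SLC38A1 and SARS1) had higher, non-overlapping values, against 4.4% of all genes. Both comparisons use the same 4 libraries of standard RPMI/B27, so they are not independent of each other.

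SHMT2 encodes the mitochondrial serine hydroxymethyltransferase, which splits serine into glycine and a one-carbon unit, and its RefSeq locus is chr12:57229711-57234935 (GRCh38.p14). Its level was 14.8, 15.6, 16.02 and 11.9 TPM in libraries 1 to 4 at Day 16. At Day 30 it was 9.33, 7.55, 7.44 and 6.02 TPM in RPMI/B27, 13.3, 13.8, 7.47 and 12.8 TPM in RPMI_glcM/B27 and 14.5, 15.7, 14.8 and 12.8 TPM in HPLM/B27. Every HPLM library was above every RPMI library and within the range of Day 16, while library 3 of RPMI_glcM/B27 stayed at the level of standard RPMI. The difference between HPLM/B27 and RPMI/B27 was 0.86 ± 0.17 (adjusted p = 0.0138), a 1.81-fold higher level. It was 0.71 (adjusted p = 0.0254) without libraries 3 and 4 of RPMI/B27, and it missed the threshold without HPLM library 2 (adjusted p = 0.0513). RPMI_glcM/B27 differed from RPMI/B27 by 0.56 ± 0.17 (adjusted p = 0.112).

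DDIT3 encodes CHOP, a C/EBP-family factor that ATF4 induces and that accompanies lasting stress signalling (chr12:57516588-57520517, a locus that also holds MIR616). It was at 15.1, 18.6, 11.9 and 12.3 TPM at Day 16 and at 14.8, 17.6, 9.09 and 8.55 TPM in RPMI/B27 at Day 30. In RPMI_glcM/B27 it was at 30.02, 21.1, 15.7 and 23.9 TPM and in HPLM/B27 at 17.96, 28.6, 28.7 and 21.6 TPM. The HPLM values lay above all 4 RPMI values, the highest of which, in library 2, was close to the lowest HPLM value. HPLM/B27 exceeded RPMI/B27 by 0.93 ± 0.24 (adjusted p = 0.0493), and the value without libraries 3 and 4 was 0.53 (adjusted p = 0.131). RPMI_glcM/B27 exceeded RPMI/B27 by 0.83 ± 0.24, which did not pass (adjusted p = 0.0832) but did so after median-of-ratios scaling (0.78, adjusted p = 0.00789).

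SLC38A1 encodes a sodium-coupled carrier of glutamine and other small neutral amino acids (chr12:46183063-46269043), and its motif run is shown above. Its level was 89.3, 89.3, 94.8 and 81.2 TPM at Day 16. At Day 30 it was 71.97, 66.3, 42.4 and 39.5 TPM in RPMI/B27, 88.5, 94.6, 83.4 and 73.7 TPM in RPMI_glcM/B27 and 72.4, 96.9, 101 and 93.8 TPM in HPLM/B27. RPMI/B27 libraries 3 and 4 held the lowest values of all 16, and library 1 of that group was just below the lowest HPLM library. HPLM/B27 was higher by 0.75 ± 0.17 (adjusted p = 0.0297), and by 0.38 (adjusted p = 0.0508) without libraries 3 and 4. The difference of 0.66 ± 0.17 between RPMI_glcM/B27 and RPMI/B27 did not pass (adjusted p = 0.0558).

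GLUL encodes glutamine synthetase, which joins ammonia to glutamate (chr1:182378098-182391790). It was at 10.5, 18.4, 12.1 and 8.79 TPM at Day 16. In RPMI/B27 at Day 30 it was at 13.05, 11.8, 5.16 and 7.63 TPM, in RPMI_glcM/B27 at 20.9, 21.7, 16.8 and 17.2 TPM and in HPLM/B27 at 16.7, 22.5, 21.1 and 13.8 TPM. Both groups with 5 mM glucose lay above all RPMI/B27 libraries. RPMI_glcM/B27 was higher than RPMI/B27 by 1.02 ± 0.25 (adjusted p = 0.0444), a 2.03-fold difference, while the difference of 0.96 ± 0.25 for HPLM/B27 stopped just short (adjusted p = 0.0551). Without libraries 3 and 4 of RPMI/B27 these values were 0.58 (adjusted p = 0.129) and 0.52 (adjusted p = 0.132).

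**Figure D1:**
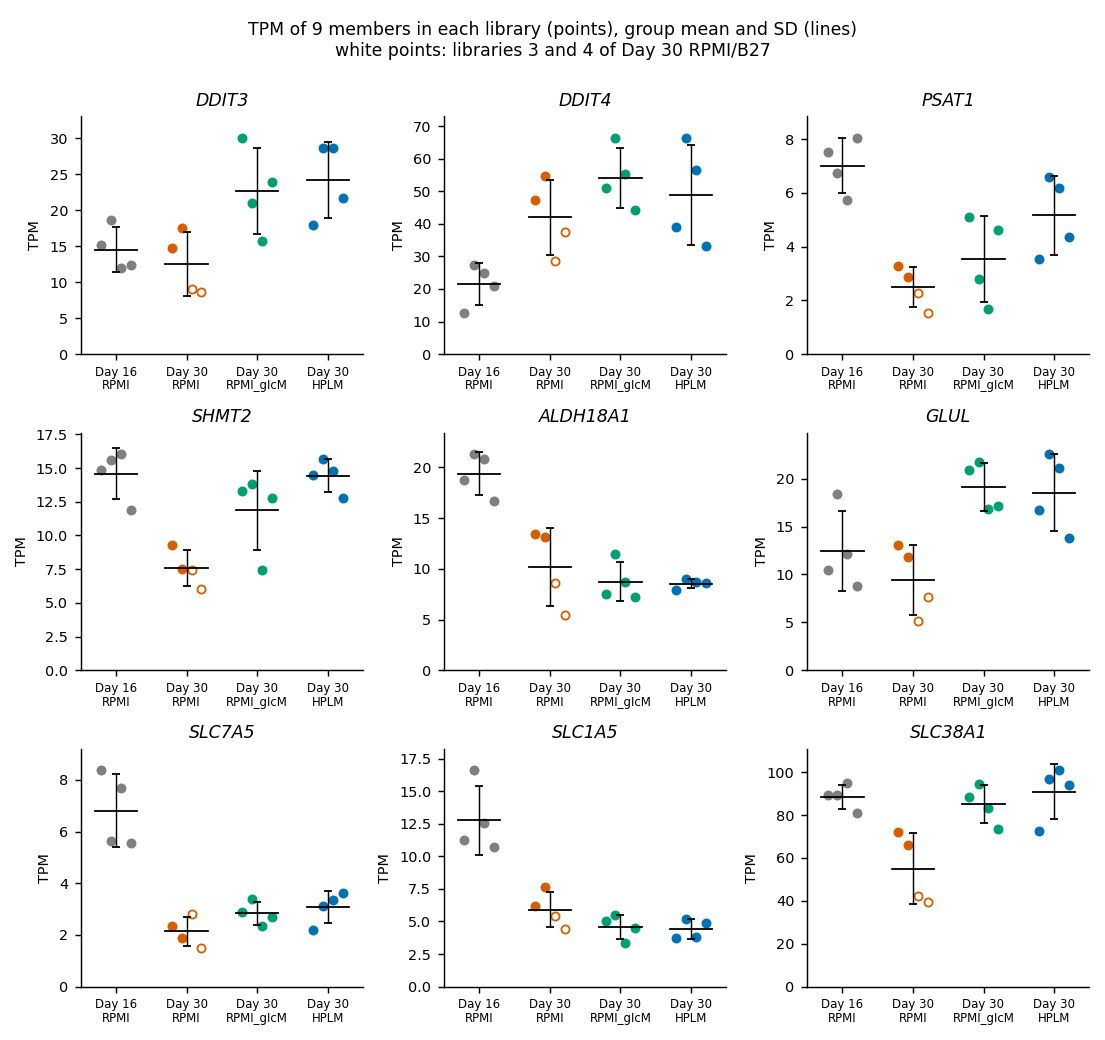
TPM (vertical axis, from 0) of the 9 members given in every library, in the 4 groups (horizontal axis); points are libraries, lines the group mean and SD (n = 4), and white points libraries 3 and 4 of Day 30 RPMI/B27. SHMT2, DDIT3, SLC38A1 and GLUL are lower in RPMI/B27 than in HPLM/B27 at Day 30, with the white points lowest in DDIT3, SLC38A1 and GLUL, while SLC7A5 and SLC1A5 are lower in all Day 30 groups than at Day 16.

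The count of members called against standard RPMI/B27 depended on the scaling and on the libraries that stood apart. After median-of-ratios scaling, 8 members were higher in HPLM/B27 (AARS1, DDIT3, GLUL, MTHFD2, PSAT1, SHMT2, SLC38A1 and SLC38A2), beside 7.43% of all genes called higher. In RPMI_glcM/B27, 7 members were higher (the same genes without PSAT1), beside 6.46% of all genes. In TPM without libraries 3 and 4 of RPMI/B27, the members called in HPLM/B27 were SHMT2 (higher), and SLC7A2 (-0.99, adjusted p = 0.0145) and ALDH18A1 (-0.59, adjusted p = 0.0183), both lower, while 20.9% of all genes were called. RPMI_glcM/B27 then called SLC7A2 and ALDH18A1, lower, beside 10.4% of all genes. Values without libraries 3 and 4 also hold the shift of the typical gene described above. SLC7A2, a carrier of arginine and other cationic amino acids, was at 45.4, 54.8, 19.9 and 26.8 TPM in RPMI/B27 and at 21.6 to 26.1 TPM in HPLM/B27, so that its libraries 1 and 2 were high and 3 and 4 near the other media.

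**Figure D2:**
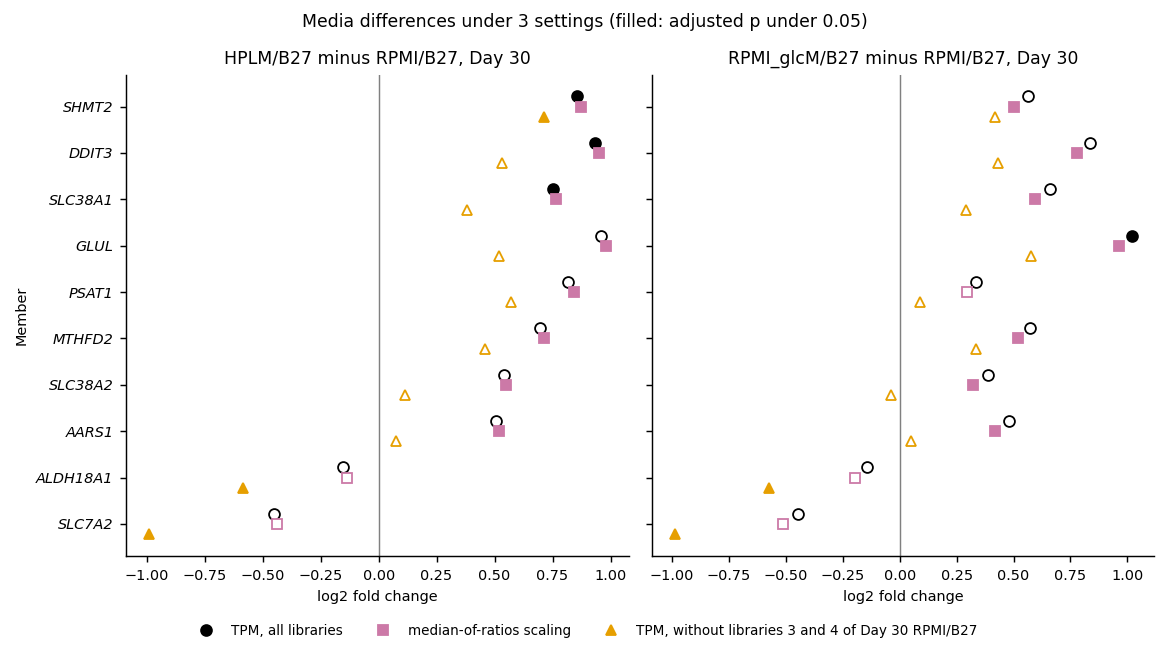
log2 fold change (horizontal axis) of 10 members (vertical axis) in HPLM/B27 and in RPMI_glcM/B27 against RPMI/B27 at Day 30, in TPM with all libraries (circles), after median-of-ratios scaling (squares) and in TPM without libraries 3 and 4 of RPMI/B27 (triangles); filled symbols have an adjusted p under 0.05. SHMT2 in HPLM/B27 is filled under all 3 settings, and every triangle lies to the left of the circle of the same gene.

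Among the members between these calls, MTHFD2, the mitochondrial folate enzyme that acts after SHMT2, was at 7.85 ± 2.397 TPM (mean ± SD, n = 4) in RPMI/B27, 11.8 ± 1.51 with RPMI_glcM/B27 and 13.1 ± 2.93 with HPLM/B27, and its difference of 0.70 ± 0.20 did not pass (adjusted p = 0.0884). PSAT1, the aminotransferase of serine synthesis, was at 3.26, 2.86, 2.28 and 1.54 TPM in RPMI/B27, 5.11, 2.78, 1.67 and 4.601 TPM in RPMI_glcM/B27 and 3.53, 6.57, 6.19 and 4.34 TPM in HPLM/B27. The HPLM values lay above the RPMI values without overlap, with a difference of 0.82 ± 0.25 (adjusted p = 0.109). The other enzymes of the serine route gave no such pattern: PHGDH, which starts it, differed by -0.06 ± 0.16 (adjusted p = 0.92), and PSPH, which ends it, by -0.02 ± 0.25 (adjusted p = 0.988). ATF4 was at 16.4 ± 1.702 TPM at Day 16 and at 14.4 ± 2.59, 16.9 ± 2.45 and 16.7 ± 0.463 TPM in RPMI, RPMI_glcM and HPLM at Day 30, and it passed in none of the 6 comparisons in TPM; after median-of-ratios scaling it was called higher in HPLM/B27 than at Day 16 (0.36, adjusted p = 0.0496). Of its effectors, TRIB3, a pseudokinase, had 0.997 ± 0.501 TPM in RPMI/B27 and 1.66 ± 0.6601 TPM in HPLM/B27 (difference 0.42 ± 0.23, adjusted p = 0.417). The 4 tRNA ligases had positive differences from 0.25 (SARS1) to 0.51 (AARS1) in HPLM/B27, none past the threshold.

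From Day 16 to Day 30 the members that passed were mostly lower, as were most genes. In RPMI/B27, 15 of 35 passed, 14 of them lower, beside 19.9% of all genes (2.08% higher and 17.8% lower). In RPMI_glcM/B27, 9 passed, 8 of them lower, beside 21.1% (3.34% higher and 17.8% lower). In HPLM/B27, 8 passed, 6 of them lower, beside 25.4% (3% higher and 22.4% lower). The count was thus above the share of all genes in RPMI/B27 and near it in the other media. The members' medians were -0.53, -0.22 and -0.16, beside -0.28, -0.22 and -0.29 over all genes, so the typical gene in TPM was itself lower at Day 30. Median-of-ratios scaling removes that shift: 12 members then passed in RPMI/B27 (3 higher, 9 lower, beside 17.5% of all genes, 8.76% higher and 8.76% lower), 13 in RPMI_glcM/B27 (6 higher, 7 lower, beside 27.6%, 14% higher and 13.6% lower) and 14 were called for HPLM/B27 (10 higher, 4 lower, beside 25.3%, 13.4% higher and 11.9% lower). Those higher after this scaling were DDIT4, SLC1A4 and SLC7A2 in RPMI/B27, and DDIT4, SLC1A4, DDIT3, GLUL, SLC38A2 and CEBPG in RPMI_glcM/B27. In HPLM/B27 they were the same 6 as in RPMI_glcM/B27 with SARS1, SLC38A1, TRIB3 and ATF4. Without libraries 3 and 4 of RPMI/B27, 7 members passed there, DDIT4 higher and PHGDH, MTHFD2, SHMT2, WARS1, SLC7A5 and SLC1A5 lower, beside 9.66% of all genes. Values below Day 16 without overlap were found in 13, 9 and 7 of the 35 members in RPMI, RPMI_glcM and HPLM, against 16.2%, 25.9% and 32.1% of all genes. The 3 comparisons share the Day 16 libraries.

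**Figure D3:**
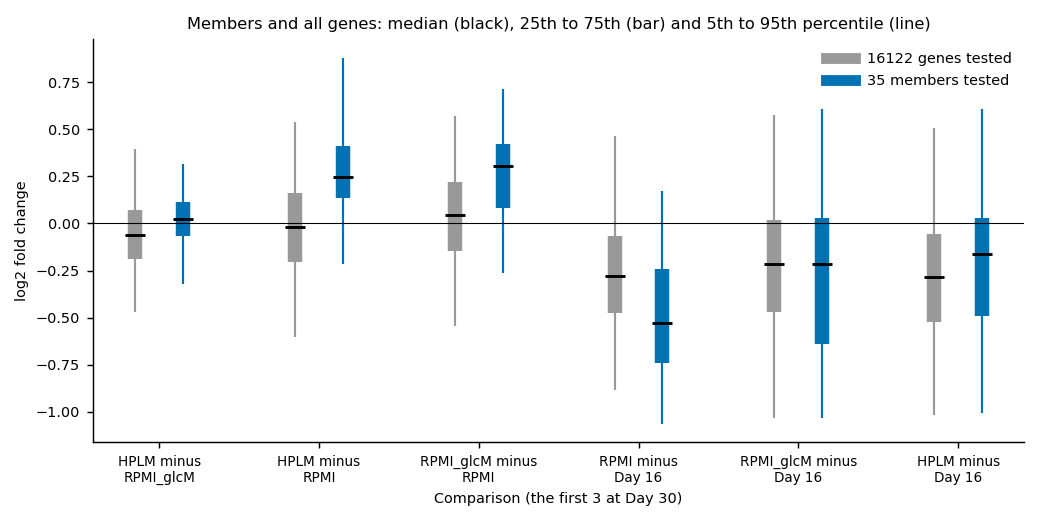
log2 fold changes (vertical axis) of the 16122 genes tested (grey) and of the 35 members (blue) in the 6 comparisons (horizontal axis): median (black mark), 25th to 75th percentile (bar) and 5th to 95th percentile (line). The members' bar is shifted up from that of all genes in both comparisons with RPMI/B27 at Day 30 and down in RPMI/B27 against Day 16, with the bars overlapping in each. In HPLM/B27 against RPMI_glcM/B27 it lies largely beside that of all genes.

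**Figure D4:**
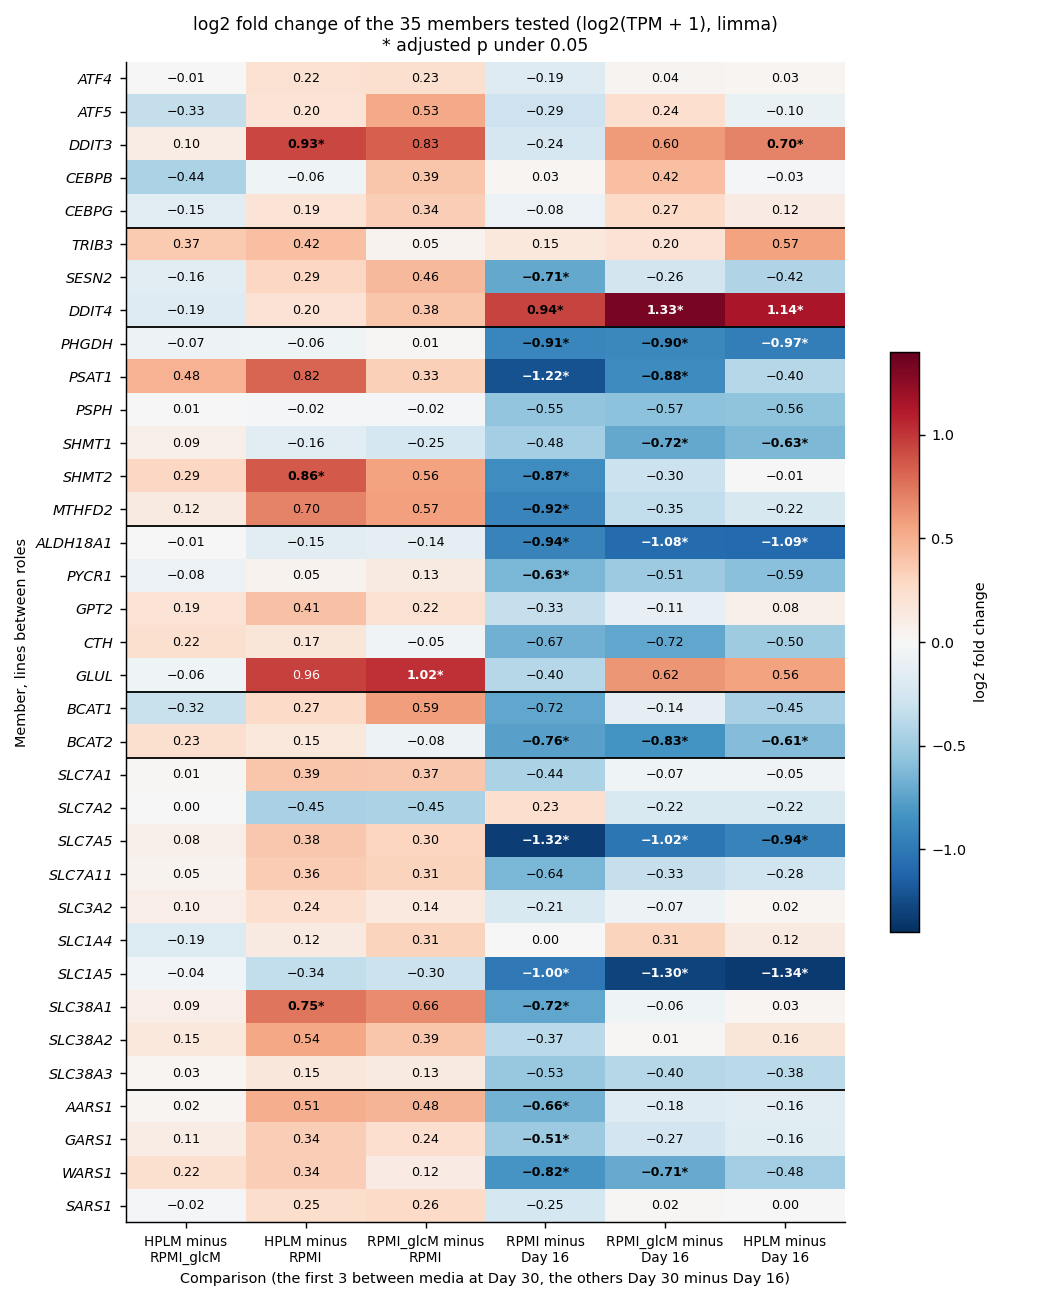
log2 fold change on the log2(TPM + 1) scale, written in each cell and coloured, of the 35 members tested (rows, lines between roles) in the 6 comparisons (columns); stars mark an adjusted p under 0.05. DDIT4 is higher and ALDH18A1, SLC7A5, SLC1A5, PHGDH and BCAT2 are lower than at Day 16 in all Day 30 media, and the HPLM against RPMI_glcM column has no star.

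Among regulators and effectors, DDIT4 was higher than at Day 16 in every medium. DDIT4 encodes REDD1, an inhibitor of mTORC1. Its levels were 12.6, 27.5, 25.04 and 21.1 TPM at Day 16 and, at Day 30, 47.5, 54.8, 28.5 and 37.4 TPM in RPMI/B27, 50.9, 66.4, 55.2 and 44.3 TPM in RPMI_glcM/B27 and 39.04, 66.4, 56.6 and 33.3 TPM in HPLM/B27. All 12 Day 30 values lay above all Day 16 values. The differences were 0.94 ± 0.26 (adjusted p = 0.0184), 1.33 ± 0.26 (adjusted p = 0.00165) and 1.14 ± 0.26 (adjusted p = 0.00448), or 1.93-, 2.51- and 2.21-fold. DDIT3 was higher than at Day 16 in HPLM/B27 (0.70 ± 0.24, adjusted p = 0.0414). In RPMI_glcM/B27 it differed by 0.60 ± 0.24 (adjusted p = 0.086), which became 0.85 (adjusted p = 0.00147) after median-of-ratios scaling. SESN2, a leucine-binding inhibitor of mTORC1, was lower in RPMI/B27 (-0.71 ± 0.20, adjusted p = 0.0235), with means of 9.52 TPM at Day 16 and 5.48, 7.96 and 6.86 TPM in the Day 30 media. That call was lost without libraries 3 and 4 of RPMI/B27, at -0.45 (adjusted p = 0.255), and after median-of-ratios scaling, at -0.42 (adjusted p = 0.107). The partner gene CEBPG (13.8 TPM at Day 16 and 12.97 to 16.7 TPM at Day 30), CEBPB (2.92 to 4.31 TPM) and ATF5 (2.37 to 3.76 TPM), which encodes another factor of this response, passed in no comparison in TPM. After median-of-ratios scaling CEBPG was called higher than at Day 16 in RPMI_glcM/B27 and HPLM/B27.

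In serine and glycine synthesis PHGDH fell in every medium, and SHMT2 and MTHFD2 fell in RPMI/B27. PHGDH, the first enzyme, fell from 8.05 ± 1.46 TPM at Day 16 to 3.802 ± 0.753, 3.83 ± 0.634 and 3.61 ± 0.702 TPM in RPMI, RPMI_glcM and HPLM, with differences of -0.91 ± 0.16, -0.90 ± 0.16 and -0.97 ± 0.16 (adjusted p = 0.00162, 0.00107 and 0.000609). The groups did not overlap in any of the 3 comparisons. PSAT1, at 7.54, 6.75, 5.72 and 8.04 TPM at Day 16, fell in RPMI/B27 (-1.22 ± 0.25, adjusted p = 0.00384) and RPMI_glcM/B27 (-0.88 ± 0.25, adjusted p = 0.0191), and differed by -0.40 ± 0.25 in HPLM/B27 (adjusted p = 0.244). The PSAT1 call in RPMI/B27 was lost without libraries 3 and 4, at -0.97 (adjusted p = 0.0554), and that in RPMI_glcM/B27 after median-of-ratios scaling, at -0.65 (adjusted p = 0.052). SHMT2 and MTHFD2 fell in RPMI/B27 alone among the tests passed, with differences of -0.87 ± 0.17 (adjusted p = 0.00324) and -0.92 ± 0.20 (adjusted p = 0.00578); in HPLM/B27 their differences from Day 16 were -0.01 ± 0.17 and -0.22 ± 0.20. SHMT1, the cytosolic counterpart of SHMT2, was lower in RPMI_glcM/B27 (-0.72 ± 0.18, adjusted p = 0.0089) and HPLM/B27 (-0.63 ± 0.18, adjusted p = 0.0169), with -0.48 ± 0.18 in RPMI/B27 (adjusted p = 0.0692), and its difference between HPLM/B27 and RPMI/B27, -0.16 ± 0.18, did not pass (adjusted p = 0.759). The SHMT1 call in HPLM/B27 was lost after median-of-ratios scaling, at -0.36 (adjusted p = 0.107). PSPH differed from Day 16 by -0.55 to -0.57 without passing.

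In proline synthesis, ALDH18A1, which turns glutamate into the proline and ornithine precursor, was at 18.8, 21.3, 20.8 and 16.6 TPM at Day 16. At Day 30 it was at 13.5, 13.1, 8.597 and 5.41 TPM in RPMI/B27, 7.53, 11.4, 8.73 and 7.24 TPM in RPMI_glcM/B27 and 7.87, 8.99, 8.71 and 8.59 TPM in HPLM/B27. All Day 30 values lay below Day 16, with the lowest in library 4 of RPMI/B27 and the narrowest range in HPLM/B27. The differences were -0.94 ± 0.21 (adjusted p = 0.00687), -1.08 ± 0.21 (adjusted p = 0.00197) and -1.09 ± 0.21 (adjusted p = 0.00183); the first was -0.50 (adjusted p = 0.0527) without those libraries. PYCR1, the last step to proline, passed in RPMI/B27 (-0.63 ± 0.22, adjusted p = 0.0485). PYCR1 differed by -0.21 (adjusted p = 0.566) without libraries 3 and 4, and after median-of-ratios scaling by -0.32 (adjusted p = 0.0799). CTH, which makes cysteine from cystathionine, and GPT2, the mitochondrial alanine aminotransferase, passed in no comparison, with group means of 1.77 to 3.598 and 6.58 to 8.86 TPM. BCAT2, the mitochondrial branched-chain aminotransferase, was lower in all media (-0.76, -0.83 and -0.61, adjusted p = 0.0219, 0.0108 and 0.0469), though its ranges overlapped those of Day 16. After median-of-ratios scaling BCAT2 kept its call in RPMI_glcM/B27, at -0.58 (adjusted p = 0.0148), and lost it in RPMI/B27, at -0.44 (adjusted p = 0.0756), and in HPLM/B27, at -0.28 (adjusted p = 0.234). Its RPMI/B27 value was -0.59 (adjusted p = 0.189) without libraries 3 and 4. The cytosolic BCAT1 did not pass (-0.72, -0.14 and -0.45).

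Among transporters, SLC7A5 and SLC1A5 fell in every medium. SLC7A5 is the LAT1 chain that imports leucine and other large neutral amino acids in exchange for glutamine. It was at 8.37, 5.63, 7.68 and 5.58 TPM at Day 16 and at 2.33, 1.89, 2.800 and 1.502 TPM in RPMI/B27, 2.898, 3.400, 2.34 and 2.698 TPM in RPMI_glcM/B27 and 2.19, 3.14, 3.36 and 3.61 TPM in HPLM/B27 at Day 30. Its differences were -1.32 ± 0.18 (adjusted p = 0.000195), -1.02 ± 0.18 (adjusted p = 0.00079) and -0.94 ± 0.18 (adjusted p = 0.00151). No Day 30 value reached the lowest Day 16 value. SLC1A5, the neutral amino acid exchanger ASCT2, was at 11.3, 16.6, 12.6 and 10.7 TPM at Day 16. At Day 30 it was at 6.200, 7.61, 5.38 and 4.45 TPM in RPMI/B27, 5.07, 5.48, 3.34 and 4.49 TPM in RPMI_glcM/B27 and 3.76, 5.21, 3.78 and 4.89 TPM in HPLM/B27. Its groups did not overlap Day 16 either, and it differed by -0.999 ± 0.18 (adjusted p = 0.00158), -1.30 ± 0.18 (adjusted p = 0.000111) and -1.34 ± 0.18 (adjusted p = 8.33e-05). Both genes also passed in all media after median-of-ratios scaling, with -1.04, -0.78 and -0.64 for SLC7A5 and -0.69, -1.05 and -1.03 for SLC1A5.

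Relatives and partners of these carriers are set beside them. SLC3A2, the chain that brings SLC7A5 to the cell surface, had 7.99 ± 1.98 TPM at Day 16 and 6.72 ± 1.56, 7.56 ± 1.83 and 8.06 ± 1.52 TPM at Day 30, with differences of -0.21 ± 0.21, -0.07 ± 0.21 and 0.02 ± 0.21. SLC1A4, a close relative of SLC1A5 that carries alanine, serine and cysteine, had 10.97 ± 0.9701, 11.2 ± 2.97, 13.9 ± 1.99 and 12.05 ± 1.38 TPM in the same order and passed in no comparison in TPM; after median-of-ratios scaling it was higher than at Day 16 in all media (0.31, 0.56 and 0.44). SLC38A1 fell in RPMI/B27 (-0.72 ± 0.17, adjusted p = 0.00923), with -0.35 (adjusted p = 0.11) without libraries 3 and 4, and it differed by -0.06 and 0.03 in the other media. Its relative SLC38A2, which cells raise when amino acids are scarce, was at 115 ± 11.1 TPM at Day 16 and 92.5 ± 32.7, 117 ± 14.5 and 129 ± 11.9 TPM at Day 30 and passed in no comparison in TPM. SLC7A1, SLC7A2, SLC7A11 and SLC38A3 did not pass either, with differences from Day 16 between -0.64 (SLC7A11 in RPMI/B27, the cystine carrier) and 0.23 (SLC7A2 in RPMI/B27).

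Ratios between members of 1 library do not depend on how libraries are scaled. The pairs were formed after the values had been seen, so their ratios are a description with no test. The log2 ratio of SLC7A5 to SLC3A2 was -0.74 to 0.13 at Day 16, against -1.94 to -1.09, -1.67 to -1.06 and -1.62 to -1.18 in RPMI, RPMI_glcM and HPLM at Day 30. For SLC1A5 to SLC1A4 it was -0.03 to 0.61, then -1.21 to -0.62, -2.15 to -1.29 and -1.67 to -1.12. Day 16 did not overlap any Day 30 group in either pair. The ratio of the mitochondrial SHMT2 to the cytosolic SHMT1 was 1.45 to 1.99 at Day 16, 1.18 to 1.58 in RPMI/B27, 1.76 to 2.59 in RPMI_glcM/B27 and 2.26 to 3.05 in HPLM/B27, so that both media with 5 mM glucose lay above all RPMI/B27 libraries. The ratio of DDIT3 to ATF4 was -0.73 to 0.19 in RPMI/B27, -0.03 to 0.58 in RPMI_glcM/B27 and 0.13 to 0.80 in HPLM/B27. Lengths cancel within a pair across groups, while the absolute ratio still depends on the lengths the authors used.

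**Figure D5:**
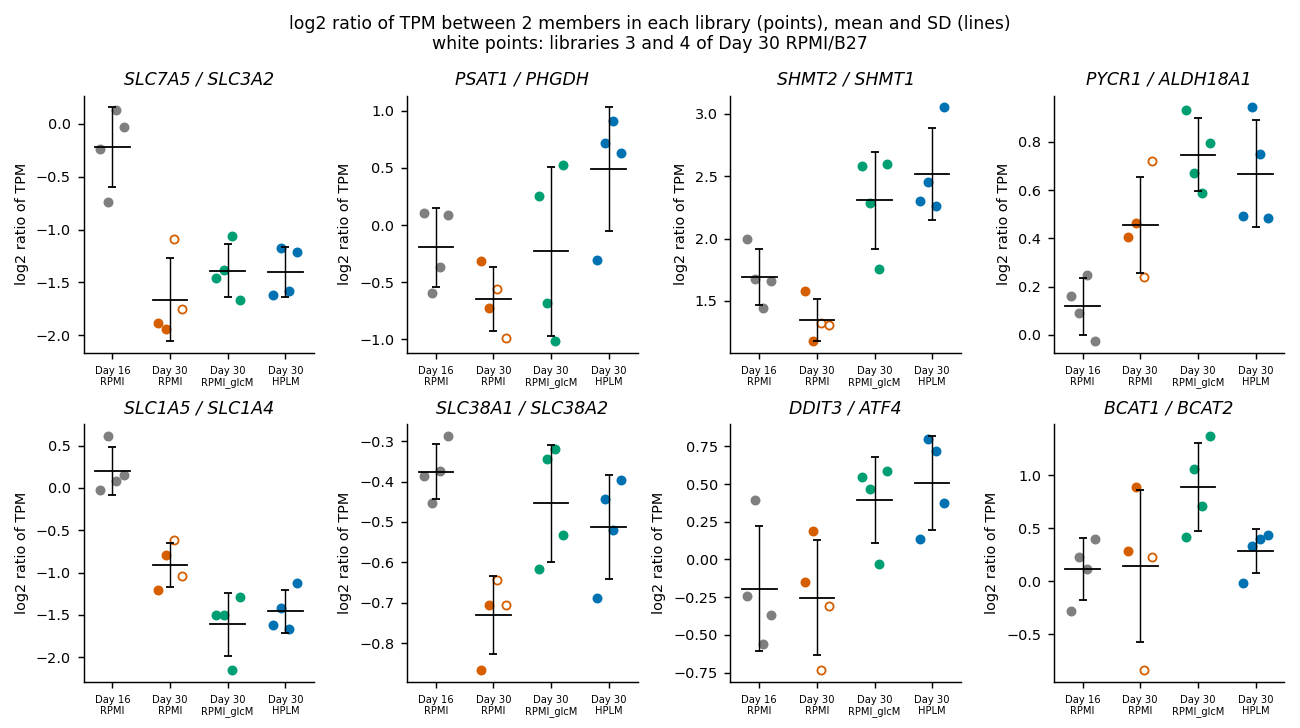
log2 ratio of TPM (vertical axes, not starting at 0) between 2 members in each library for 8 pairs, in the 4 groups (horizontal axes); points are libraries, lines the mean and SD (n = 4), and white points libraries 3 and 4 of Day 30 RPMI/B27. SLC7A5 against SLC3A2 and SLC1A5 against SLC1A4 are lower in every Day 30 library than at Day 16, and SHMT2 against SHMT1 is higher in HPLM and RPMI_glcM than in RPMI at Day 30.

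Of the tRNA ligases, which load amino acids onto tRNA, WARS1 (tryptophan) fell in RPMI/B27 (-0.82 ± 0.18, adjusted p = 0.00596) and RPMI_glcM/B27 (-0.71 ± 0.18, adjusted p = 0.0114), with -0.48 ± 0.18 in HPLM/B27 (adjusted p = 0.0615). AARS1 (alanine; -0.66 ± 0.22, adjusted p = 0.0455) and GARS1 (glycine; -0.51 ± 0.15, adjusted p = 0.0279) passed in RPMI/B27, and SARS1 (serine) passed in no comparison in TPM. Without libraries 3 and 4 of RPMI/B27 the values of AARS1 and GARS1 were -0.23 (adjusted p = 0.531) and -0.31 (adjusted p = 0.188), so these falls rested on those libraries. Neither was called after median-of-ratios scaling. The 16 other cytosolic ligases, of which 14 were tested, gave 8, 3 and 3 lower members in RPMI, RPMI_glcM and HPLM against Day 16, led by the tyrosine ligase YARS1 (-0.88 ± 0.17, adjusted p = 0.00218 in RPMI/B27), beside 17.8%, 17.8% and 22.4% of all genes called lower, with list medians of -0.43, -0.16 and -0.21. After median-of-ratios scaling they were 2, 1 and 1 lower and 0, 3 and 4 higher, beside 8.76%, 13.6% and 11.9% of all genes lower and 8.76%, 14% and 13.4% higher. Positive differences went from 0, 2 and 3 of the 14 to 3, 9 and 10. Without libraries 3 and 4 of RPMI/B27, 1 of the 14 was lower there, beside 9.66% of all genes called in either direction. In HPLM/B27 against RPMI/B27, 2 of the 14 were higher, beside 1.51% of all genes. They were the threonine ligase TARS1 (71.2 against 47.2 TPM, 0.59 ± 0.14, adjusted p = 0.0409) and the asparagine ligase NARS1 (169 against 123 TPM, 0.46 ± 0.12, adjusted p = 0.0456). Neither passed without libraries 3 and 4, with 0.40 (adjusted p = 0.0665) and 0.29 (adjusted p = 0.0703).

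The 6 members under the filter were near the limit of detection. ASNS, asparagine synthetase, had 0.000 to 0.4496 TPM over all libraries, that is 0 to 7 reads each, and it overlaps the annotated read-through CZ1P-ASNS, with which its reads may be split; that gene held 25 to 56 reads per group, against 6 to 16 for ASNS. CHAC1, which degrades glutathione, had 0.149 TPM at Day 16 and 0.361, 0.262 and 0.431 TPM in RPMI, RPMI_glcM and HPLM at Day 30; in a fit with no filter it was higher than at Day 16 in RPMI/B27 (0.24 ± 0.07, adjusted p = 0.0477) and HPLM/B27 (0.31 ± 0.07, adjusted p = 0.0104). In the same fit CBS, the enzyme before CTH, fell from 1.57 TPM to 0.497, 0.496 and 0.637 TPM and was called in all media; it has a near-identical copy, CBSL, with which reads can be shared, so this value is uncertain. The glycine carrier SLC6A9 and the taurine carrier SLC6A6 were lower than at Day 16 in RPMI/B27 (-0.79 ± 0.19 and -0.42 ± 0.09, adjusted p = 0.0165 and 0.00846), SLC6A6 also in RPMI_glcM/B27 (-0.33 ± 0.09, adjusted p = 0.0211). SLC43A1, a carrier of large neutral amino acids, was lower than at Day 16 in HPLM/B27 (-0.52 ± 0.15, adjusted p = 0.0375). On the log2(TPM + 1) scale these differences understate the change of such low genes.

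Further genes of the pathway were counted from lists chosen by function, with earlier results of these data known. Their counts are to be read against the 17.8%, 17.8% and 22.4% of all genes that were lower than at Day 16 in RPMI, RPMI_glcM and HPLM. After median-of-ratios scaling, 8.76%, 13.6% and 11.9% of all genes were lower and 8.76%, 14% and 13.4% higher. Without libraries 3 and 4 of RPMI/B27, 9.66% of all genes were called there in either direction. Between media, 1.51% of all genes were higher in HPLM/B27 and 1.36% in RPMI_glcM/B27 than in RPMI/B27. Of 13 tested genes for eIF2 kinases, eIF2B subunits and the eIF2 phosphatase, 0 passed between media, and 3, 4 and 5 were lower than at Day 16 in the same order. After median-of-ratios scaling 1, 3 and 4 were lower and 2, 3 and 3 higher than at Day 16, and without libraries 3 and 4 none was called in RPMI/B27 against Day 16. The amino acid-sensing kinase GCN2 (EIF2AK4) was lower in RPMI_glcM/B27 (-0.59 ± 0.17, adjusted p = 0.0179) and HPLM/B27 (-0.69 ± 0.17, adjusted p = 0.00682). Of 11 tested further ATF4 targets, 2 were higher in HPLM/B27 than in RPMI/B27, STC2 and NARS1, which is also counted above. STC2, which encodes the secreted stanniocalcin-2, was higher in HPLM/B27 (0.80 ± 0.20, adjusted p = 0.0416) and in RPMI_glcM/B27 (1.07 ± 0.20, adjusted p = 0.00895) than in RPMI/B27. The STC2 values were 0.58 (adjusted p = 0.0688) and 0.85 (adjusted p = 0.0278) without libraries 3 and 4. VEGFA, the blood vessel growth factor, was higher than at Day 16 in all media (0.52 ± 0.17, 1.08 ± 0.17 and 1.13 ± 0.17). Of 15 genes of endoplasmic reticulum stress outside the ATF4 branch, 0 passed between media and 8, 7 and 7 were lower than at Day 16, among them the folding enzyme gene PDIA4 (-0.99 ± 0.20, -1.26 ± 0.20 and -1.28 ± 0.20); after median-of-ratios scaling 2, 5 and 5 were lower and 0 higher, and without libraries 3 and 4 of RPMI/B27, 4 were lower there.

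Among 15 tested further transporters, the creatine carrier SLC6A8 was higher in HPLM/B27 than in RPMI/B27 (22.2 against 12.4 TPM, 0.88 ± 0.22, adjusted p = 0.0421), and 5, 5 and 4 were lower than at Day 16, led by the glutamate carrier SLC1A3 (-1.17 ± 0.16 in HPLM/B27) and the neutral amino acid carrier SLC7A8 (-1.10 ± 0.22). When libraries 3 and 4 were left out, SLC6A8 differed by 0.37 (adjusted p = 0.0742), and 1 transporter was lower in RPMI/B27 than at Day 16. After median-of-ratios scaling 3, 3 and 2 transporters were lower and 1, 2 and 2 higher than at Day 16. Among 20 genes of amino acid sensing by mTORC1, the Rag GTPase RRAGD was higher in HPLM/B27 (0.85 ± 0.18, adjusted p = 0.016) and RPMI_glcM/B27 (0.77 ± 0.18, adjusted p = 0.0303) than in RPMI/B27, and its activator FLCN was higher in HPLM/B27 (0.76 ± 0.17, adjusted p = 0.0279). In the fit without libraries 3 and 4, RRAGD kept its call in HPLM/B27, at 0.46 (adjusted p = 0.0209), and lost it in RPMI_glcM/B27, at 0.38 (adjusted p = 0.064), while FLCN had 0.55 (adjusted p = 0.0529). SESN3, a sestrin like SESN2, was lower than at Day 16 in all media (-0.88 ± 0.22, -1.44 ± 0.22 and -1.17 ± 0.22), the first with -0.46 (adjusted p = 0.177) without those libraries. RPTOR was also lower in all media (-0.58, -0.53 and -0.56), the first with -0.26 (adjusted p = 0.255) without them. MTOR was lower in RPMI/B27 (-0.62 ± 0.14), with -0.37 (adjusted p = 0.0613) without them. CASTOR1 was lower in RPMI_glcM/B27 (-0.67 ± 0.20) and HPLM/B27 (-0.64 ± 0.20), the latter with -0.39 (adjusted p = 0.0555) after median-of-ratios scaling. FLCN was higher than at Day 16 in RPMI_glcM/B27 (0.52 ± 0.17) and HPLM/B27 (0.67 ± 0.17). Of 14 tested genes of one-carbon metabolism and glycine cleavage, 0 passed between media and 5, 5 and 4 were lower than at Day 16, with the glycine decarboxylase gene GLDC falling from 2.99 TPM to 0.2796, 0.326 and 0.509 TPM. After median-of-ratios scaling 2, 3 and 1 of these were lower and 0, 2 and 2 higher, and without libraries 3 and 4 of RPMI/B27, 3 were lower there. Of 19 tested genes of other amino acid synthesis and breakdown, the cytosolic aspartate aminotransferase GOT1 was higher in HPLM/B27 (145 against 78.7 TPM, 0.91 ± 0.17, adjusted p = 0.00945) and in RPMI_glcM/B27 (0.78 ± 0.17, adjusted p = 0.0253) than in RPMI/B27, and 9, 4 and 8 were lower than at Day 16. The proline breakdown gene ALDH4A1 was also higher in RPMI_glcM/B27 than in RPMI/B27 (14.2 against 8.74 TPM, 0.67 ± 0.16, adjusted p = 0.0443). Its value was 0.40 (adjusted p = 0.107) without libraries 3 and 4, and 0.61 (adjusted p = 0.00102) after median-of-ratios scaling. Leaving out libraries 3 and 4, GOT1 had 0.57 (adjusted p = 0.019) and 0.44 (adjusted p = 0.0712), and 2 genes of that list were lower in RPMI/B27 than at Day 16; after median-of-ratios scaling 7, 4 and 6 were lower and 2, 2 and 3 higher. Cell cycle genes, counted because dividing cells use much serine and glutamine, were lower than at Day 16 in 7, 10 and 9 of 10 cases (5, 8 and 6 after median-of-ratios scaling, and 4 in RPMI/B27 without libraries 3 and 4) and passed between media in 0. In the hepatic endoderm-like list, 7 of 10 tested genes were lower in HPLM/B27 than in RPMI/B27, beside 0.893% of all genes. In RPMI_glcM/B27, 6 of 10 were lower than in RPMI/B27, beside 2.2% of all genes called in either direction. The first of these comparisons called SHMT2, DDIT3 and SLC38A1 higher, and the second called GLUL higher. The fibroblast-like marker COL1A2 was lower in both (-0.81 ± 0.20 and -1.24 ± 0.20), and the smooth muscle-like marker ACTG2 in the first (-0.88 ± 0.21). No other marker of those lists passed between media. The part of hepatic endoderm-like, fibroblast-like or smooth muscle-like cells in the results on members was not tested.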

How the data were processed

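RNA of 16 wells was sequenced by the authors (stranded total RNA libraries), aligned with STAR 2.5.3a to hg38 with decoy sequences and counted per gene with featureCounts 2.0.3, then deposited as TPM for 43388 genes; the annotation, the lengths and the strand setting of the counting are not given in the sources used here. Groups came from the labels, with 4 samples each and 0 columns of no sample. The 16122 genes whose mean reached 1 TPM were tested with limma 3.58.1 (trend, R 4.3.3) on log2(TPM + 1), all 4 groups in 1 fit, Benjamini-Hochberg within each of 6 comparisons, threshold 0.05. Fold changes are on that scale. Whole reads were recovered from the TPM steps for limma-voom. The fit was tested on simulated data: 192 of 200 genes changed by 1.5 on the log2 scale were recovered, with 10 false calls. No tested member changed that much, the largest change being -1.34 (SLC1A5 in HPLM/B27 against Day 16). The simulation held no libraries that stood apart, and its spread between wells was a fixed setting, the same for all genes and not taken from these data. It therefore does not show how the fit handles smaller changes, such libraries or the spread of these wells. The members and lists were chosen with earlier results of these data known. Values in every library are given for members past the threshold between Day 30 media or changed by at least 1 on the log2 scale, and at most 4 genes of a further list are named per comparison, those with the largest changes. Replicate numbers were not used to pair samples in this fit.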

Additional observations from a re-analysis of the deposited data

Results flagged for a closer look

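In 10 of 164 sets of 4 libraries (41 members in 4 groups), 1 library stood far from the other 3 by Dixon's test at the 95% level, where chance gives about 1 in 20, so this number is near what chance gives. The high libraries were library 1 of RPMI_glcM/B27 for ATF4 (20.6 TPM, the others 15.2 to 16.1), library 1 of Day 30 RPMI/B27 for ASNS (0.237 TPM, the others 0.0404 to 0.0536, a matter of 1 to 3 reads), library 2 of Day 16 for PHGDH (10.2 TPM), library 2 of RPMI_glcM/B27 for SHMT1 (2.84 TPM), library 1 of Day 16 for GPT2 (9.94 TPM) and library 2 of HPLM/B27 for AARS1 (71.3 TPM, the others 39.6 to 44.4). The low libraries were library 4 of Day 16 and library 4 of RPMI_glcM/B27 for PSPH (9.02 and 5.99 TPM), library 4 of HPLM/B27 for SHMT1 (1.54 TPM, the others 2.86 to 3.08) and library 3 of RPMI_glcM/B27 for SHMT2 (7.47 TPM, the others 12.8 to 13.8). The last bears on a result: without that library, SHMT2 was higher in RPMI_glcM/B27 than in RPMI/B27 by 0.75 (limma adjusted p = 0.0224).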

How the results depend on the processing

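No sign of the 41 followed differences of single members (36 of them called) was reversed in 751 alternative values: 603 kept their side of the threshold, 115 lost the call and 33 gained one. HPLM/B27 against RPMI_glcM/B27 called 0 members under every alternative run. For HPLM/B27 against RPMI/B27 the count of 3 became 1 with no filter, 0 with only the 2 groups in the fit, 8 after median-of-ratios scaling and without the 61 mitochondrially encoded and ribosomal RNA genes, 5 with the replicate block, 7 with limma-voom and 10 with limma-voom after median-of-ratios scaling. For RPMI_glcM/B27 against RPMI/B27 the count of 1 became 0 with no filter or only the 2 groups, 2 with a mean of at least 5 TPM and without libraries 3 and 4 of RPMI/B27, 3 without the 61 genes, with the replicate block and with log2 RNR1 as a covariate, 7 after median-of-ratios scaling, 5 with limma-voom and 8 with limma-voom after that scaling. Against Day 16, RPMI/B27 (15) gave 6 with only the 2 groups or the RNR1 covariate, 7 without libraries 3 and 4, 12 after scaling, 17 with no filter, 19 with the replicate block and 21 with limma-voom; RPMI_glcM/B27 (9) gave 5 with at least 5 TPM, 15 with limma-voom and 16 with limma-voom after scaling; HPLM/B27 (8) gave 14 after scaling, 13 with limma-voom and 16 with both.

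Leaving out 1 library at a time gave 0 to 0 calls for HPLM/B27 against RPMI_glcM/B27, 0 to 5 against RPMI/B27, 0 to 3 for RPMI_glcM/B27 against RPMI/B27, and 9 to 20, 8 to 10 and 5 to 8 against Day 16 for RPMI, RPMI_glcM and HPLM. HPLM/B27 against RPMI/B27 gave 0 without HPLM library 2, 1 without HPLM library 3 or 4 or RPMI library 3 or 4, and 5 without RPMI library 1 or 2. RPMI_glcM/B27 against RPMI/B27 gave 0 without RPMI library 3 or 4 or RPMI_glcM library 1, 2 or 4, 2 without RPMI library 1 and 3 without RPMI library 2. Against Day 16, RPMI/B27 gave 9 without Day 16 library 1, and HPLM/B27 gave 5 without Day 16 library 3 or HPLM library 4. The cause was not tested. The main fit did not pair wells by replicate number. Deviations of same-numbered wells correlated at -0.07 to 0.21, over 0.1 in 6 of 24 pairs, and those of differently numbered wells at -0.31 to 0.16 in 72 pairs. The block gained 3 calls and lost none among the followed differences. Over all members, calls against Day 16 went from 15, 9 and 8 to 19, 12 and 12 with the block. Whether wells of 1 number share a batch was not tested. The alternatives without libraries 3 and 4, and limma-voom after median-of-ratios scaling, were chosen after seeing the data. Depth limits the 6 members under 1 TPM most.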

Other observations

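The gene lengths behind the TPM values, recovered from what 1 read is worth, exceeded the span of the RefSeq gene in 213 of 14760 tested genes with a span (1.44%), among them 2 members: ATF4, with 7716 bases against a span of 2128, and CHAC1, with 6082 against 3042. A longer length lowers the TPM of a gene by the same factor in every library, so levels of these genes were compared only between groups. The ratio of DDIT3 to ATF4 was likewise read only across groups. Whether reads from outside the RefSeq span were counted for these genes was not examined.

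Whether members with the ATF4 motif in a promoter window moved apart from the others was looked at as a description. In HPLM/B27 against RPMI/B27 the median log2 fold change was 0.27 over the 9 tested members with the motif and 0.27 over the 18 tested members with a window and no motif. In RPMI/B27 against Day 16 the medians were -0.51 and -0.44. No match says only that these letters are not in the window, and the difference was not tested.

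The log2 ratio of BCAT1 to BCAT2 was 0.42 to 1.37 in RPMI_glcM/B27 and -0.02 to 0.44 in HPLM/B27, ranges that overlap in 1 library of RPMI_glcM/B27. The ratio of PYCR1 to ALDH18A1 was -0.03 to 0.25 at Day 16 and 0.24 to 0.72, 0.59 to 0.93 and 0.48 to 0.94 in RPMI, RPMI_glcM and HPLM at Day 30, where the media overlapped each other and RPMI/B27 also overlapped Day 16. These pairs were formed after the values were seen and carry no test.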
